A study of Mus musculus with 12 samples.

Results

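Malat1, Neat1 and 5 hosts of small nucleolar RNAs (snoRNAs), Gas5, Snhg1, Snhg3, Snhg5 and Snhg12, are long noncoding RNA (lncRNA) genes, and they were examined for transcription initiation in mouse spermatocytes. These 7 genes were chosen by name from the 55413 genes of the GENCODE M21 annotation of mm10 (GRCm38). Nascent transcription was mapped by leChRO-seq, a run-on assay that labels RNA still held by engaged polymerase, in germ cells enriched by STAPUT (sedimentation at unit gravity) for leptonema/zygonema, pachynema or diplonema of meiotic prophase I. The 12 libraries, 4 for each substage, were made from testes of adult WT mice with no treatment. The methods name C57BL/6J and DBA/2J as the study's backgrounds, without saying which gave these libraries. The fractions were enriched rather than pure, and the labels tie no library to an animal. The libraries of a substage were merged before sites of initiation were called with dREG, a classifier that finds the paired, divergent run-on signal of promoters and enhancers. One list of dREG peaks per substage was therefore available, and these held 71107 (leptonema/zygonema), 68352 (pachynema) and 38603 (diplonema) peaks. No value below has a replicate spread, and no test between substages was possible. The lists hold no read counts, so the depth behind each peak is not known from them, and the part of depth in the shorter diplonema list was not tested.

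Malat1 and Neat1 make abundant RNAs that stay in the nucleus. Malat1 RNA gathers in nuclear speckles, which hold splicing factors, and Neat1 RNA is the scaffold of paraspeckles, bodies built around its long isoform. The snoRNA hosts work differently: their introns carry box C/D or box H/ACA snoRNAs, which guide ribose methylation or pseudouridylation of ribosomal and small nuclear RNAs, whereas the spliced exons are often removed by nonsense-mediated decay. Host genes of this kind commonly start at a pyrimidine tract, as the mRNAs of the translation machinery do.

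The starts of these genes are shown because the peaks described below lie over them. RefSeq promoter sequences of GRCm38.p6 matched 6 of the 7 genes, all but Neat1, with 7 entries because Gas5 has 2 start sites. Each sequence runs 5′ to 3′ on the gene's strand from 60 bases before the start to the 30th base of the transcript. Capitals mark the letters TATA where they begin 40 to 21 bases before the start, and a run of at least 5 pyrimidines that begins with C within 10 bases of the start.
Malat1: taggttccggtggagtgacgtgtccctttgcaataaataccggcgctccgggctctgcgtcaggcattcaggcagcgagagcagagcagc
Gas5 (upstream start): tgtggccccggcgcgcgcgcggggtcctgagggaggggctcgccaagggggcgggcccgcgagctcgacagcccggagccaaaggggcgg
Gas5 (downstream start): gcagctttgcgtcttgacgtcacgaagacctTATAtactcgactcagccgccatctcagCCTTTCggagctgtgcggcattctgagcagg
Snhg1: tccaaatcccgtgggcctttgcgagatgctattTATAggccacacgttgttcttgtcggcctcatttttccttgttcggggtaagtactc
Snhg3: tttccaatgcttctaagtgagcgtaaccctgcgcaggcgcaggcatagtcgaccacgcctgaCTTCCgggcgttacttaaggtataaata
Snhg5: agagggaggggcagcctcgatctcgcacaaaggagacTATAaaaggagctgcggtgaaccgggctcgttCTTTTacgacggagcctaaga
Snhg12: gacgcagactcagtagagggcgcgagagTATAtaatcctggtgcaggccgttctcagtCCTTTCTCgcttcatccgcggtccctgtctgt

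These stretches lie at chr19:5802643-5802732 (Malat1, minus strand), chr1:161034541-161034630 and chr1:161035106-161035195 (Gas5, plus strand), chr19:8723427-8723516 (Snhg1, plus strand), chr4:132353657-132353746 (Snhg3, minus strand), chr9:88522868-88522957 (Snhg5, minus strand) and chr4:132308618-132308707 (Snhg12, plus strand). TATA stood in its window before 4 of the 7 entries, at base -29 from the downstream Gas5 start, -27 in Snhg1, -23 in Snhg5 and -32 in Snhg12. Of all 32851 mouse promoter entries, 5.70% had it there. The pyrimidine run was in 4 of the 7 entries and in 29.0% of all, and both features were in 3 entries (Gas5, Snhg5 and Snhg12) against 1.75% of all. Among 14 entries of 13 other snoRNA-host genes, 2 had TATA in the window, 6 had the pyrimidine run and 2 had both. Snhg3 had TATAAA 22 bases after its RefSeq start. The 4 other GENCODE starts of the gene, at 132353663, 132353633, 132353336 and 132352933, lie 1, 31, 328 and 731 bases downstream of the first T of these letters, so the nearest of them falls within the letters themselves. CpG sites were at 0.604 of the number expected from base composition in Malat1, the lowest of the 7 entries, and at 1.26 in Snhg5, the highest, against a median of 0.384 over all entries. Other letters were counted on both strands of the whole 300-base entries. GGGCGG, the core of a GC box, was in 4 of 7 entries and 35.7% of all, CCAAT in 2 and 37.4%, CGGAAG, an ETS-type core, in 3 and 16.9%, and TATAAA in 3 and 13.6%. TGACG was in 3 entries and 20.8% of all, and the full palindrome TGACGTCA, which contains it, was in the entry of the downstream Gas5 start and in 1.79% of all. The MYB-type core GGCNGTT was in 2 entries, Snhg1 and Snhg12, and in 12.1% of all, and CACGTG was in 0 entries and in 7.15% of all. These letters were chosen with the sequences in view, and a match describes the letters and not binding.

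A peak was called proximal to a gene if less than 1000 bp separated its edge from any annotated transcription start site (TSS) of that gene. By this rule 6 of the 7 genes had a proximal peak in leptonema/zygonema, where 34.1% of all annotated genes, 60.2% of protein-coding genes and 31.1% of 13374 lncRNA genes had one. In pachynema 7 of 7 genes had one, against 34.4% of all genes, 60.5% of protein-coding genes and 31.7% of lncRNA genes. In diplonema 6 of 7 had one, against 28.1%, 51.6% and 24.7% of these classes. Gas5, Snhg1, Snhg5, Snhg12 and Malat1 were called in all 3 substages, which held for 26.5% of all, 49.5% of protein-coding and 22.6% of lncRNA genes. With a score of at least 0.5 the count in all 3 is 4, without Snhg12, and the pachynema count is 6, without Neat1, which is also lost there at a p-value of at most 0.01 or with lists of equal length. Neat1 lacked a proximal peak in leptonema/zygonema and Snhg3 lacked one in diplonema. The 7 genes have between 4 and 20 annotated TSS positions each, and a gene with more positions has more chances of a proximal peak. Among the 456 lncRNA genes with at least 4 positions, a group that includes the 7, the shares were 64.7%, 68.2%, 54.6% and, for all 3, 51.1%. Among the 265 other lncRNA genes that GENCODE tags as hosts of small RNAs, they were 47.9%, 50.6%, 38.5% and 35.8%.

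The dREG score rises with the strength of the initiation signature and is not scaled between substages. Each peak was therefore placed by its percentile, the percentage of peaks in its own list with the same or a lower score. The highest-scoring proximal peak of each gene, its best peak, had a median percentile of 85.4 over 6 genes in leptonema/zygonema, 84.8 over 7 in pachynema and 86.0 over 6 in diplonema. Over all genes with a proximal peak the medians were 81.4, 82.2 and 76.9. They were 83.0, 84.6 and 78.6 over protein-coding genes and 79.3, 78.6 and 72.1 over lncRNA genes. Over the called genes among the 265 other lncRNA genes tagged as hosts of small RNAs, they were 79.0, 79.8 and 73.2. A gene with more TSS positions also has more chances of a high-scoring peak. Ranked among all genes with a proximal peak instead of among peaks, the 7 genes had medians at the 60.01st, 54.5th and 66.7th percentile. Thus their median lay somewhat above the middle of genes with a called start. Below the middle were Snhg12 (39.1), Snhg1 (43.4) and Snhg3 (49.2) in leptonema/zygonema. So were Neat1 and Snhg3 in pachynema, and Neat1 and Snhg12 in diplonema. The percentiles within the lists spread widely, from 75.1 to 94.0 in leptonema/zygonema, 3.68 to 96.7 in pachynema and 34.9 to 96.4 in diplonema. Malat1, Gas5 and Snhg5 held the 3 highest best peaks in every substage, Snhg1 stayed near the median of all genes, and Neat1, Snhg3 and Snhg12 gave the low values.

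**Figure D1:**
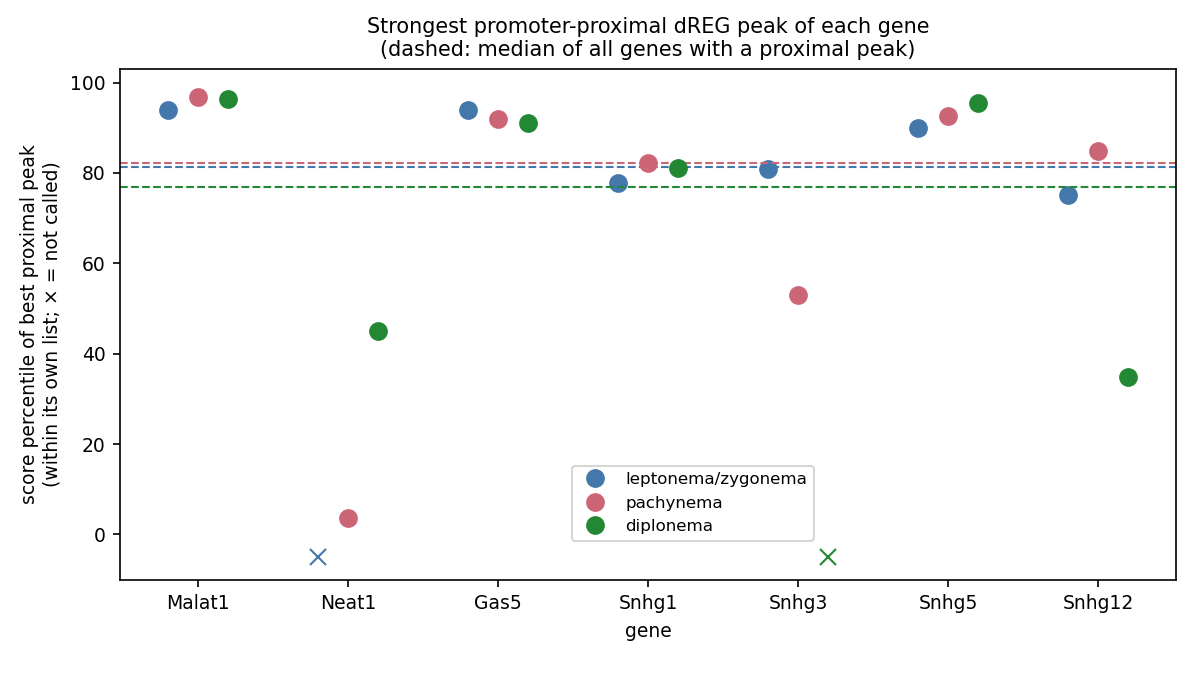
Each point is the score percentile, within its own list, of the best proximal dREG peak of the gene on the x axis, coloured by substage. A cross at the bottom marks a gene without a proximal peak, and dashed lines give the median of all genes with one (81.4, 82.2 and 76.9). Malat1, Gas5 and Snhg5 lie at or above 89.9 in each substage, whereas Neat1, Snhg3 and Snhg12 vary most between lists.

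The positions of the peaks were compared next. The leptonema/zygonema list held 17 proximal peaks of these genes, the pachynema list 16 and the diplonema list 13. Peaks inside a gene but not proximal to its TSSs, called gene-body peaks, numbered 2, 2 and 4. Peaks of different lists whose centres chained within 150 bp were linked as 1 element, and the linking was chosen after seeing the data. This gave 25 elements, of which 10 were called in all 3 substages, 9 in 2 and 6 in 1. The same count was not made over all peaks, so these numbers have no background to be read against. They also depend on how peaks were split. The narrow Malat1 element not called in pachynema lies under a broader pachynema peak. Likewise, a Gas5 element called in leptonema/zygonema alone lies under the main Gas5 peak of the other lists.

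**Figure D2:**
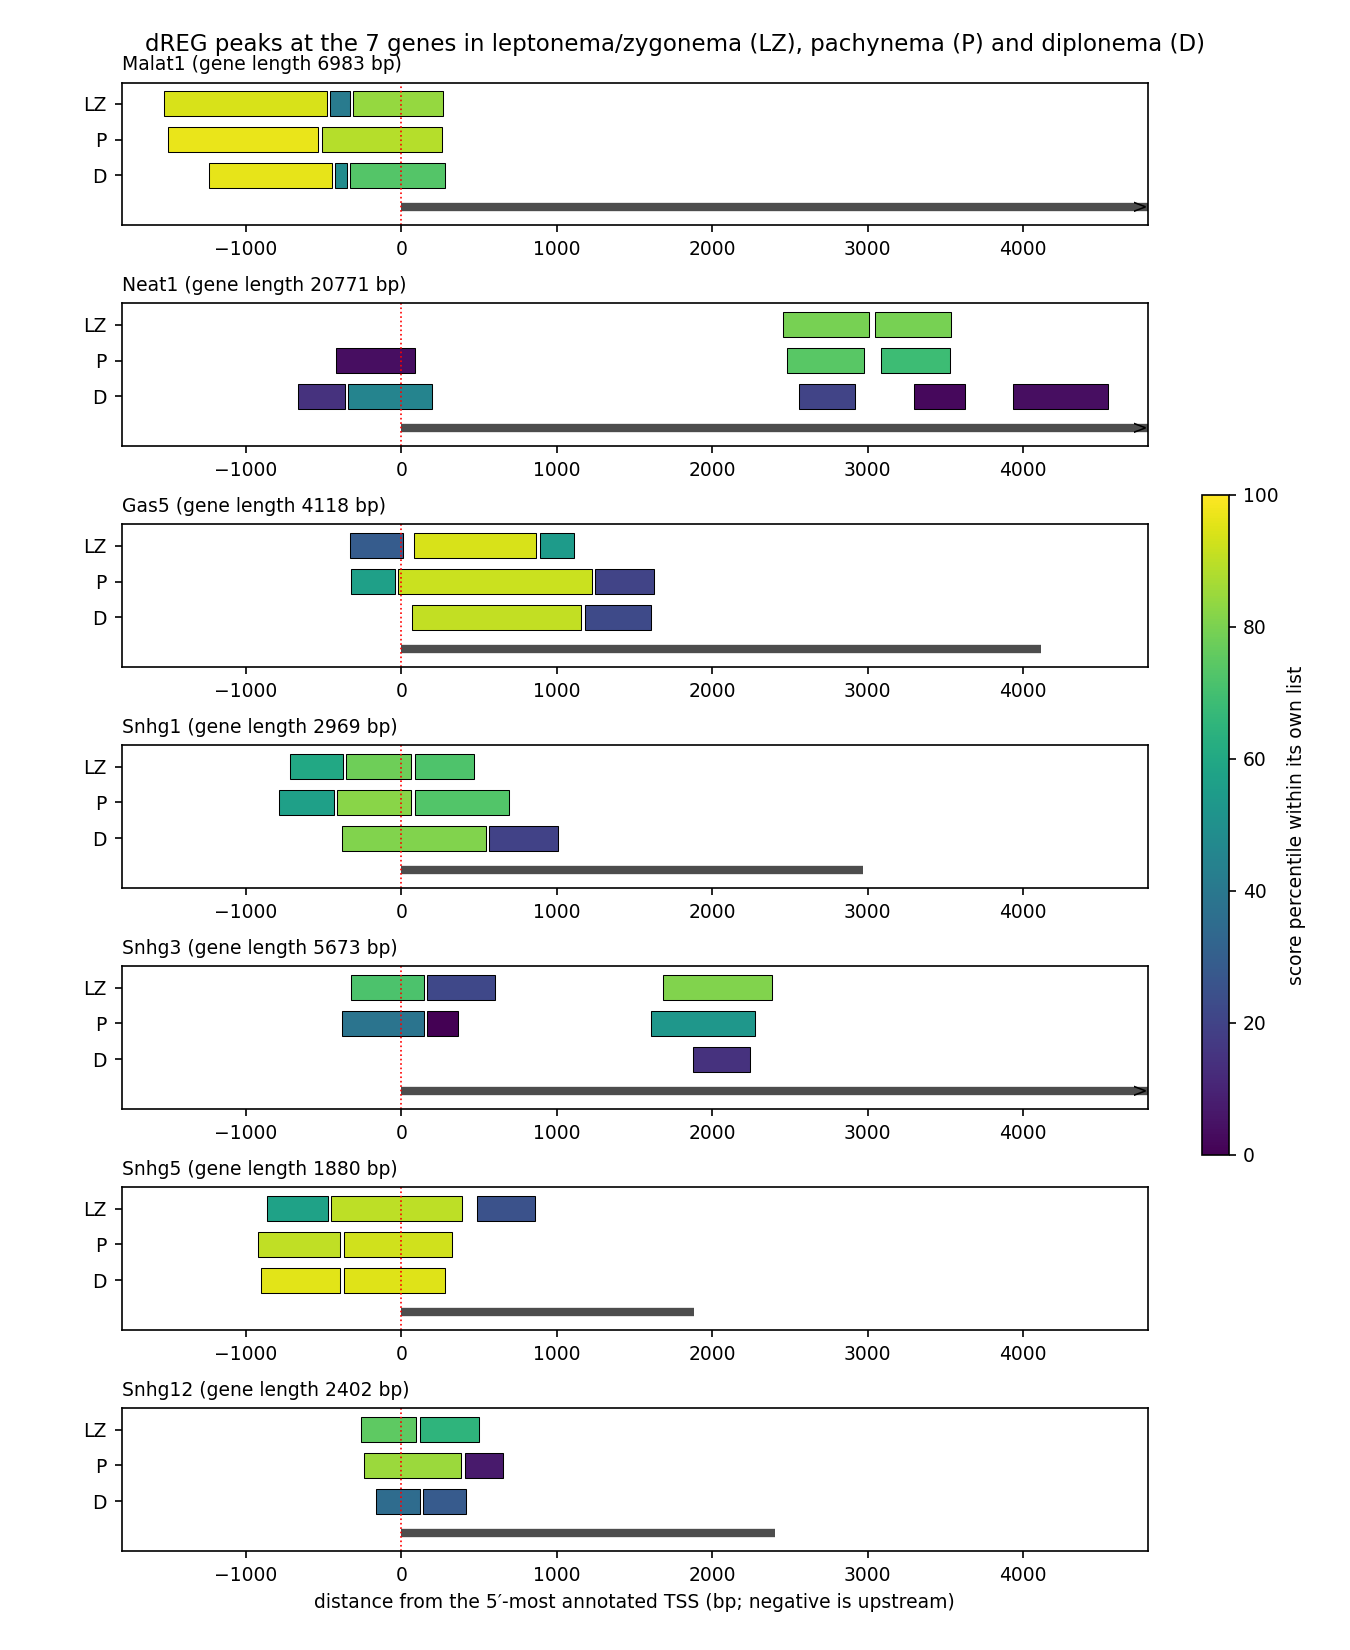
Boxes are the proximal and gene-body dREG peaks of each gene in the 3 substages (LZ, P and D from top to bottom), placed by distance in bp from the 5′-most annotated TSS and coloured by score percentile within their list. The grey bar is the gene, cut at the right edge where it is longer. Malat1 and Snhg5 have an upstream peak in every substage, and the inner peaks of Neat1 lie 2458 bp or more from its start.

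Malat1 (chr19:5795690-5802672, minus strand, 6983 bp) had 2 strong elements in each list. The peak over its TSS scored 1.069 in leptonema/zygonema (chr19:5802401-5802980), 1.105 in pachynema (chr19:5802411-5803180) and 0.764 in diplonema (chr19:5802391-5803000). These scores stood at the 84.1st, 88.8th and 73.2nd percentile. A broader peak lay upstream, with its centre 1069, 959 and 969 bp before the TSS and its near edge 479, 539 and 449 bp away. It scored 1.237, 1.254 and 1.144, at the 93.9th, 96.7th and 96.4th percentile, so in each substage the best Malat1 peak was the upstream one and not the one over the start. With distance taken from the peak centre, the best leptonema/zygonema peak is instead that over the TSS, at 84.1 in place of 93.9, and with a limit of 500 bp the same holds in pachynema, at 88.8 in place of 96.7. In diplonema the upstream peak ranked 1395th of 38603 peaks, while the TSS peak stood at the 73.2nd percentile. No TSS of another annotated gene lay within 1000 bp of the upstream peak. A narrow peak between them was called in leptonema/zygonema (130 bp wide, score 0.511) and diplonema (80 bp wide, score 0.518). It lay 20 bp from each of the others, so joining peaks at that distance makes all 3 a single peak in these lists. Gm37376, an unclassified gene on the opposite strand inside Malat1, has a TSS 731 bp from that of Malat1 and within 1000 bp of the TSS peak.

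The 101 bases around the centre of the upstream pachynema peaks are shown for Malat1 (chr19:5803581-5803681) and for Snhg5 (chr9:88523591-88523691), whose upstream sites had no annotated start of another gene within 1000 bp. Both are mm10 sequence on the minus strand, which is the strand of both genes, with no capitals since none of the strings counted on both strands above was found.
Malat1 upstream peak: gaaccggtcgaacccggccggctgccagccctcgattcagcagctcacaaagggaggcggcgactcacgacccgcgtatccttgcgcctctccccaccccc
Snhg5 upstream peak: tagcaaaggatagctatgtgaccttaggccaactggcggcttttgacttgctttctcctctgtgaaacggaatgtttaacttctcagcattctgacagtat
They differ in base composition. The Malat1 stretch is 69.3% G and C with 11 CpG sites, and the Snhg5 stretch is 43.6% G and C with 2.

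Neat1 (chr19:5824708-5845478, minus strand, 20771 bp) had no called start in leptonema/zygonema and the lowest best peak of the 7 genes in pachynema. No peak reached its TSS in leptonema/zygonema, where the nearest was 2458 bp inside the gene. In pachynema a peak over the TSS (chr19:5845391-5845900) scored 0.295, at the 3.68th percentile with a dREG p-value of 0.0203, and in diplonema a peak there (chr19:5845281-5845820) scored 0.494, at the 45.0th percentile. Among genes these best peaks stood at the 1.06th and 19.6th percentile. A further diplonema peak 363 bp upstream scored 0.331. Frmd8os, an antisense lncRNA gene on the opposite strand, starts 145 bp from the Neat1 TSS, so the TSS peaks are proximal to both genes and cannot be assigned to either.

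Inside Neat1, a pair of elements was called in every substage, though the diplonema calls were weak. In leptonema/zygonema they scored 0.986 (chr19:5841941-5842430) and 0.984 (chr19:5842471-5843020), at the 79.5th and 79.4th percentile. In pachynema they scored 0.775 and 0.850, at the 68.7th and 74.0th percentile. In diplonema they scored 0.275 and 0.356, at the 2.06th and 19.97th percentile with p-values of 0.0475 and 0.0205, so both are lost at a p-value of at most 0.01 or a score of at least 0.5. An additional peak deeper in the gene scored 0.286. Thus in leptonema/zygonema and pachynema the inner elements stood far above the TSS, while in diplonema the TSS peak had the higher score. The annotated 3′ end of the short isoform, 3170 bp long, lay inside the farther element in leptonema/zygonema and pachynema and 127 bp from it in diplonema. A gene-body peak was found in 1 of the 7 genes in leptonema/zygonema and in pachynema, where 15.6% and 14.7% of lncRNA genes had one, and in 2 of the 7 (Neat1 and Snhg3) in diplonema, where 8.68% did. Among lncRNA genes with at least 4 TSS positions the shares were 40.1%, 40.1% and 25.4%.

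**Figure D3:**
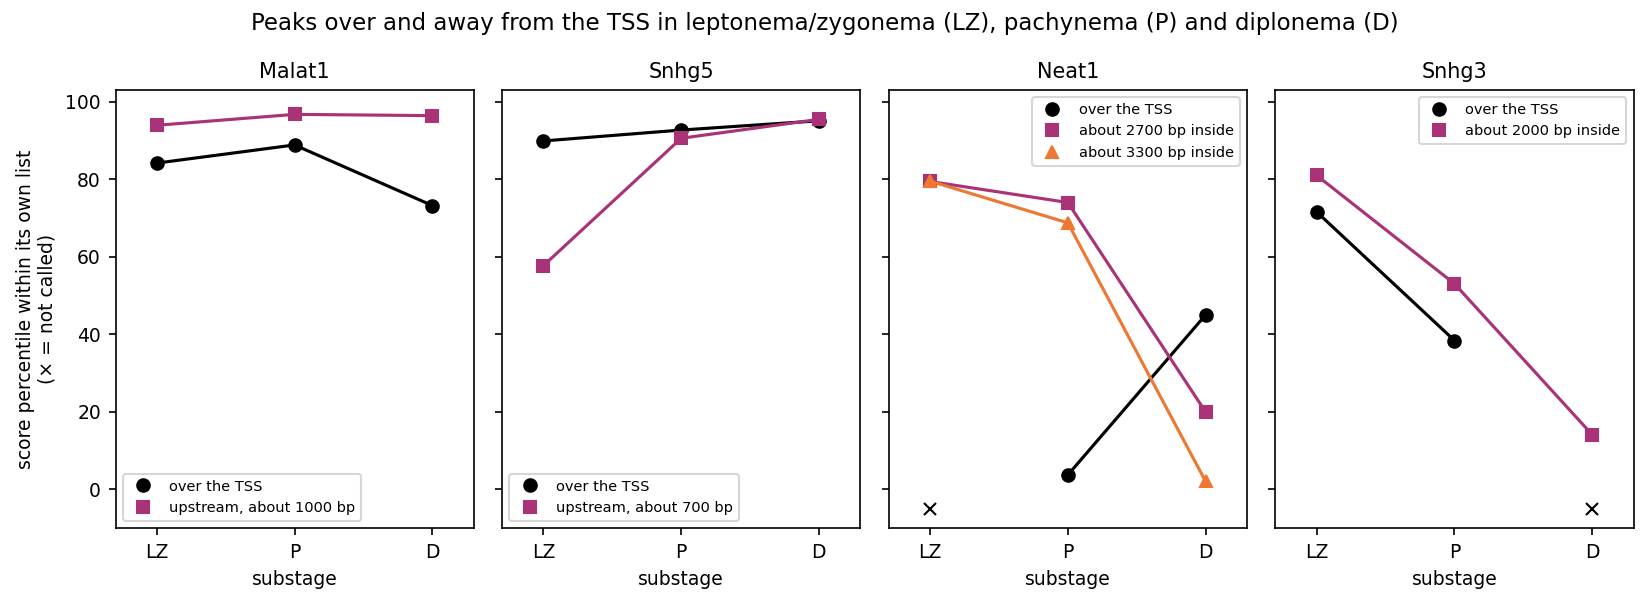
Score percentile within its own list (y axis) of single elements of 4 genes, by substage (LZ, P and D from left to right), with a cross where no peak was called. The upstream Malat1 element stays above the TSS element in each list, and the upstream Snhg5 element stands at 57.7, 90.5 and 95.4. The inner Neat1 and Snhg3 elements have their lowest values in diplonema. The lists differ in length.

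Gas5 (chr1:161034422-161038539, plus strand, 4118 bp) carries 10 entries that GENCODE types as snoRNA genes, the most of the 7. They include Snord47, Snord78, a pair of overlapping entries named Snord80, and Mir5117, which is a microRNA by name. Its main peak scored 1.238 in leptonema/zygonema (chr1:161034501-161035290), 1.158 in pachynema (chr1:161034401-161035650) and 1.028 in diplonema (chr1:161034491-161035580). The percentiles were 94.0, 91.8 and 91.0, or 82.8, 72.5 and 76.6 among genes. With lists of equal length they are 88.9, 85.6 and 91.0, so the highest value is then that of diplonema. The centre of this peak lay 599, 569 and 699 bp inside the 5′-most TSS, and it covered 12, 13 and 12 of the 20 TSS positions, including both RefSeq starts shown above. Inside the gene a weaker peak followed in leptonema/zygonema, scoring 0.630, over the snoRNA gene Gm26224. In pachynema and diplonema a different element followed, over the snoRNA gene Gm22489, scoring 0.373 and 0.367. Another weak peak scored 0.426 in leptonema/zygonema, where it covered the 5′-most TSS, and 0.633 in pachynema, where it ended 42 bp before that TSS. It was not called in diplonema. Zbtb37, a zinc finger gene on the opposite strand, has its nearest TSS 138 bp from the 5′-most Gas5 TSS, and its gene reaches to 161034849, inside Gas5 and inside the main peak of every list. All Gas5 peaks are also proximal to Zbtb37 and cannot be assigned to either gene.

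Snhg1 (chr19:8723475-8726443, plus strand, 2969 bp), the host of Snord22 and 7 other annotated snoRNA genes, also starts beside a divergent gene. Slc3a2, which encodes the heavy chain of amino acid transporters, has a TSS 106 bp away on the opposite strand, and all Snhg1 peaks are proximal to both genes and cannot be assigned to either. The peak over the Snhg1 TSS scored 0.956 (chr19:8723121-8723540), 0.986 (chr19:8723061-8723540) and 0.869 (chr19:8723091-8724020), at percentiles of 77.9, 82.2 and 81.0. These lie within 5 points of the median of all genes in the same list. Their likeness across substages depends on the unequal length of the lists: with lists cut to equal length they are 59.2, 68.5 and 81.0, and among genes 43.4, 50.03 and 56.7. In leptonema/zygonema and pachynema 2 flanking peaks were called as well, with scores of 0.691 and 0.858 in the former and 0.631 and 0.833 in the latter. In diplonema the TSS peak was broader, at 930 bp, and the other peak, 566 bp inside the gene, scored 0.355.

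Snhg5 (chr9:88521050-88522929, minus strand, 1880 bp), the host of Snord50a and Snord50b, had among the strongest starts. Its TSS peak scored 1.167 (chr9:88522541-88523380), 1.173 (chr9:88522601-88523300) and 1.111 (chr9:88522651-88523300), at percentiles of 89.9, 92.7 and 95.1. An upstream peak had its centre 712 bp before the TSS in every list, and no other annotated gene has a TSS within 1000 bp of it. In leptonema/zygonema this peak scored 0.664, and in the later substages 1.135 (pachynema) and 1.119 (diplonema). Its percentile was 57.7 in the first of these and 90.5 and 95.4 in the others, the largest span of an upstream element among the 7 genes. It ranked 30078th of 71107 peaks in leptonema/zygonema and 6462nd of 68352 in pachynema. The span depends on the unequal length of the lists. Lists of equal length drop only lower-scoring peaks, which would lower the leptonema/zygonema and pachynema percentiles and leave that of diplonema. This element's leptonema/zygonema percentile was not computed that way. A small peak inside the gene (score 0.405) was called in leptonema/zygonema alone. In diplonema the upstream peak scored slightly above the TSS peak and was the best Snhg5 peak, ranking 1766th of 38603. The upstream and TSS peaks lay 20 bp apart in every list, so joining peaks at that distance makes them a single peak.

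Snhg12 and Snhg3 lie on chromosome 4, and both had their lowest values in diplonema. Snhg12 (chr4:132308623-132311024, plus strand, 2402 bp) hosts Snora16a, Snora44, Snora61 and Snord99. Its TSS peak scored 0.907 in leptonema/zygonema (chr4:132308361-132308720), 1.033 in pachynema (chr4:132308381-132309010) and 0.430 in diplonema (chr4:132308461-132308740). The percentiles were 75.1, 84.8 and 34.9, or 39.1, 54.5 and 13.8 among genes. With lists of equal length they are 54.2, 73.1 and 34.9. The diplonema peak thus stood in the lower part of its list although it covered 5 TSS positions, as many as the leptonema/zygonema peak. A neighbouring element on the gene side scored 0.753 in leptonema/zygonema and 0.395 in diplonema. In pachynema a different element, farther inside the gene, scored 0.311. Each of these peaks scored below the TSS peak of the same list. Apart from its own snoRNAs, no other gene has a TSS within 1000 bp of these peaks.

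Snhg3 (chr4:132348014-132353686, minus strand, 5673 bp), the host of Snora73a and Snora73b, had a TSS peak of score 0.848 in leptonema/zygonema (chr4:132353541-132354010) and 0.479 in pachynema (chr4:132353541-132354070), at percentiles of 71.5 and 38.4. A weak peak beside it on the gene side scored 0.387 and 0.263. No peak covered its starts in diplonema. Rcc1, the exchange factor for the GTPase Ran, overlaps Snhg3 on the same strand with a TSS 81 bp away, so these peaks cannot be divided between the 2 genes. A further element inside the gene scored higher. It scored 1.011 in leptonema/zygonema (933 bp from the nearest Snhg3 TSS) and 0.599 in pachynema (853 bp), and both were just inside the 1000-bp limit. In diplonema it scored 0.331 at 1123 bp, just outside the limit, and was counted as a gene-body peak. In each list this element covers the TSS of Gm17300, a lncRNA gene on the opposite strand. With a limit of 500 bp the best Snhg3 peak is that over its TSS, at percentiles of 71.5 and 38.4 in place of 80.9 and 53.0. The leptonema/zygonema value of 80.9 is 64.9 with lists of equal length and 49.2 among genes. The pachynema value of 53.0 is 16.8 with lists of equal length, 20.3 with a score of at least 0.5 and 19.9 among genes.

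Genes of the same kind and genes of the partner proteins were examined by the same rule. Of 12 other snoRNA-host genes found in the annotation, 11, 11 and 9 had a proximal peak in the 3 lists in order of substage, with medians of 87.4, 86.8 and 79.5. Dancr had percentiles of 93.0, 97.2 and 99.2 and Snhg8 of 91.1, 94.3 and 99.5, while Snhg14 was not called in any list. Snhg6 had percentiles of 94.1, 86.8 and 66.04, and Snhg18 of 52.5 and 64.2 with no call in diplonema, as for Snhg3. Of 8 other nuclear lncRNA genes, 7, 6 and 6 were called. Tug1 had percentiles of 92.4, 97.0 and 97.0, close to those of Malat1, and the X-linked gene Firre had 86.2, 90.0 and 7.04. Of the other X-linked genes in this list, Jpx had 95.8, 92.6 and 92.2, and Ftx had 85.1, 80.7 and 77.8. Xist had 20.4 in leptonema/zygonema and was not called later.

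The genes for proteins that work with these RNAs were nearly all called, where 60.2%, 60.5% and 51.6% of protein-coding genes were. Over all protein-coding genes with a proximal peak the median percentiles were 83.0, 84.6 and 78.6. Those of the box H/ACA genes below were close to these. All 7 paraspeckle protein genes tested had a proximal peak in every list, with medians of 85.6, 90.9 and 95.9. Sfpq, which binds Neat1 RNA in paraspeckles, had percentiles of 93.6, 92.7 and 96.9, and Nono, its partner, had 67.6, 85.4 and 68.2. The Neat1 TSS, at 3.68 in pachynema and 45.0 in diplonema, stood below each of the 7 in both lists. All 5 nuclear speckle protein genes were called, with medians of 94.7, 95.2 and 93.1. For the proteins that assemble on snoRNAs, all 4 box C/D genes were called (medians of 85.7, 89.4 and 77.7), and 6, 6 and 5 of 6 box H/ACA genes were (medians of 82.1, 83.3 and 78.5). Fbl, the box C/D methyltransferase, had percentiles of 95.1, 96.5 and 76.3, and Dkc1, the box H/ACA pseudouridine synthase, had 79.5, 81.1 and 32.3. All 8 genes of nonsense-mediated decay were called, with medians of 86.0, 89.1 and 90.7. These lists were short and chosen with earlier results known, and no difference between them was tested.

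**Figure D4:**
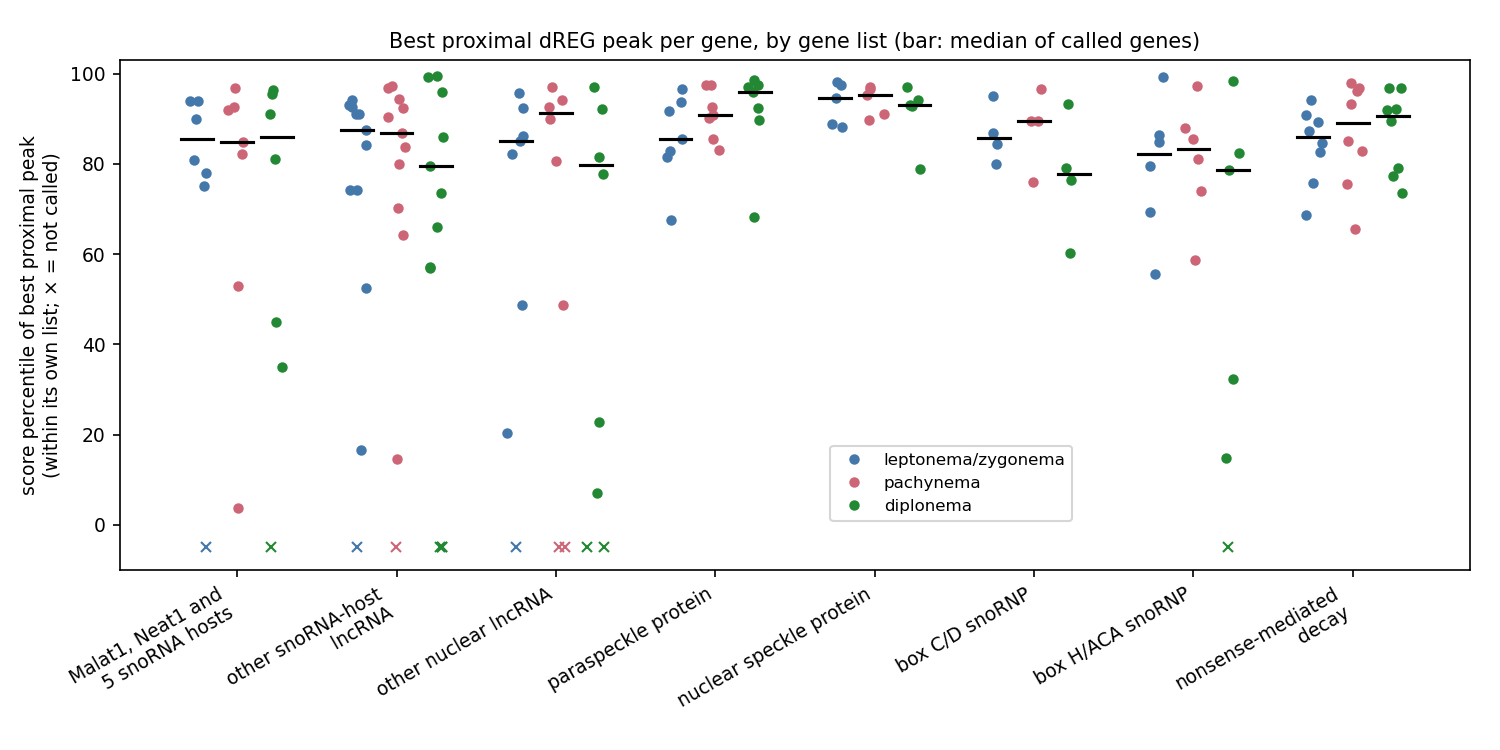
Score percentile within its own list (y axis) of the best proximal peak of each gene, by gene list (x axis) and substage (colour), with a bar at the median of called genes and a cross for each gene not called. Paraspeckle and nuclear speckle protein genes lie above 67 in every substage, whereas the 7 genes include values under 50 in pachynema (3.68) and diplonema (34.9 and 45.0).

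For each of the 5 genes called in all 3 lists, the gene with the closest set of 3 percentiles was found among 14396 or 14397 others called in all 3, leaving out snoRNA, snRNA and miRNA genes and genes that share a proximal peak with it. It was Smg1 for Malat1 (distance of 0.393 percentile points), Tex36 for Gas5 (0.535), Gramd4 for Snhg1 (0.483), Rbbp7 for Snhg5 (0.409) and Gm28551 for Snhg12 (1.03). Within 5 points lay 1397 genes for Malat1, 781 for Snhg5, 616 for Gas5, 137 for Snhg1 and 15 for Snhg12. The Snhg12 set of percentiles was therefore shared by the fewest genes, and likeness over 3 lists is a description only.

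Markers were used to see which cells the lists reflect. Of 6 leptotene/zygotene marker genes, 6, 6 and 5 had a proximal peak, and Stra8, the gene required for meiotic entry, was the one missing in diplonema. Of 6 pachytene marker genes, 4, 5 and 6 had one. The medians were 86.4, 89.1 and 81.1 for the leptotene/zygotene markers and 88.3, 89.6 and 81.5 for the pachytene markers. Both medians were highest in pachynema and lowest in diplonema, so the 2 lists did not set the substages apart. Round spermatid markers were called for 4 of 5 genes in every list, with medians of 69.0, 64.7 and 79.7, although Prm1 and Prm2 had the same score in each list. Spermatogonial markers were called for 3 of 4, with medians of 81.4, 82.9 and 66.3. Of 5 Sertoli marker genes, 2, 3 and 3 were called, with medians of 48.7, 58.3 and 43.2, and Amh and Rhox5 were not called in any list. Of 4 Leydig marker genes, 0, 1 and 0 were called, the single peak being at Cyp11a1 with a percentile of 28.1. None of 3 macrophage markers was called. A peak at a gene shows initiation and not cell numbers, and the part of other cell types in the values of the 7 genes was not tested.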

How the data were processed

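Sites of nascent transcription were taken from 3 deposited lists of dREG peaks, 1 for each substage, called on the merged leChRO-seq libraries (12 libraries, 4 a substage). Before calling, the authors collapsed reads sharing a molecular identifier (PRINSEQ lite), cut adapters (cutadapt) and aligned the rest to mm10 and ribosomal DNA (BWA). dREG was run at its defaults. For each peak the authors deposited a dREG score, a p-value (all under 0.05, adjustment not stated) and the position of the centre. Scores are printed with the decimals deposited. The lists hold no read counts.

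The 7 genes and the comparison lists were chosen with earlier results of these data known. TSSs were those of all GENCODE M21 transcripts (132629 positions). Distances were measured from the peak edge with a limit of 1000 bp, and percentiles were computed within each list. Genes named were the 7, genes with a TSS within 1000 bp of their peaks, the snoRNAs inside them, the genes of the comparison lists and the closest gene in percentiles. Of the comparison lists, Snhg4, Snhg7, Snhg16 and Oip5os1 did not match a name in the annotation and were not analysed for peaks. Promoter entries were matched by RefSeq symbol, which added Snhg7 and Snhg16 and left out Snhg4 and Snhg6. The steps were tested on simulated peaks. Alternatives were a dREG score of at least 0.5, a p-value of at most 0.01, lists of equal length, a limit of 500 bp, distance from the centre, the 5′-most TSS alone, RefSeq TSSs, joined peaks and other percentiles. Python 3.11.15, numpy 2.4.6, pandas 2.3.3, pysam 0.24.0 and matplotlib 3.10.9 were used.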

Additional observations from a re-analysis of the deposited data

How the results depend on the processing

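The number of the 7 genes with a proximal peak was counted under each alternative that changes the peaks, the TSSs or the distance, apart from joining. It was 6 in leptonema/zygonema throughout, 6 or 7 in pachynema, and 6 in diplonema except with a dREG score of at least 0.5, which left 4. Neat1 in pachynema was not called with that score, with a p-value of at most 0.01 or with lists of equal length, and Neat1 and Snhg12 in diplonema were not called with that score. No paired analysis was possible because libraries had been merged within a substage before calling, which also leaves no replicate to omit.

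Other values depended more on the settings. In the order leptonema/zygonema, pachynema and diplonema, the median percentile was 75.8, 80.2 and 87.5 with a score of at least 0.5, and 83.0, 86.4 and 83.4 with a p-value of at most 0.01. It was 82.6, 80.04 and 82.6 among proximal peaks, and 60.01, 54.5 and 66.7 among genes. With lists cut to 38603 peaks it was 73.1 in leptonema/zygonema and 79.3 in pachynema. In leptonema/zygonema alone it was 83.9 with a limit of 500 bp, with the 5′-most TSS or with RefSeq TSSs (an alternative chosen after seeing the data), and 81.0 with distance from the centre. Joining peaks up to 20 bp apart gave 9, 9 and 6 proximal peaks. In diplonema a score of at least 0.5 left 7 proximal and 0 gene-body peaks, and a p-value of at most 0.01 left 2 gene-body peaks. The 5′-most TSS alone gave 4 gene-body peaks in pachynema. For single genes, 94 of 166 percentiles moved by more than the 95% binomial interval of the percentile and 72 did not. That interval reflects the length of a list and no replicate spread. Some outcomes were also fixed in advance, since lists of equal length leave the diplonema list uncut and percentiles among genes use another base. The tally is therefore a description only.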

Other observations

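Both chromosome 19 genes that stay in the nucleus, Malat1 and Neat1, had their highest-scoring peak of every list except 1 away from the annotated start. The exception was Neat1 in diplonema, where the TSS peak scored 0.494 and the best inner peak 0.356. The same held for the snoRNA host Snhg3 in all 3 lists and for Snhg5 in diplonema. Joining peaks up to 20 bp apart merges this Snhg5 peak with the peak over its start. It does the same for Malat1 in leptonema/zygonema and diplonema. The dREG p-values were not ordered by score in every case: the diplonema peaks of score 0.286 in Neat1 and 0.331 in Snhg3 were listed with a p-value of 0, whereas another diplonema peak of score 0.331, upstream of Neat1, had 0.00363.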
